A study of Mus musculus with 32 samples.

Results

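Fos, Fosb, Jun, Junb, Jund, Egr1, Ier2, Dusp1 and Atf3 are 9 immediate-early genes, chosen by gene name from the 30644 genes of the count table. All 9 were among the 18676 genes tested. RNA was sequenced from multipotent progenitors sorted from the bone marrow of C57BL/6 mice in 4 subsets, MPP1 to MPP4. Their genotypes were wild type, +/1013 (1 copy of the 1013 allele of Cxcr4) and 1013/1013 (2 copies). Nothing else was altered in any group, as far as the labels say. The allele truncates the intracellular tail of CXCR4, a chemokine receptor, which gene counts cannot check. There were 32 libraries in 12 groups, with 3 wild-type, 3 +/1013 and 2 1013/1013 libraries in each subset, all made from pools of 3000 cells. The ages of the mice are not given in the sources used here, and the labels do not say whether the pools came from separate animals, so p-values measure the spread between these libraries. Each label carries a library number. In 8 libraries, called the 8 below, it is a multiple of 3, and in the other 24 it is not. What the number stands for is not stated. The 8 comprise 3 MPP2, 2 MPP3 and 3 MPP4 libraries and no MPP1 library.

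Immediate-early genes are transcribed within minutes of a stimulus from transcription factors already present in the cell, without new protein synthesis. Growth factors, stress and the handling of tissue all induce them, mainly through kinases of the MAPK family that act on SRF, its ETS partners and CREB. Fos and Fosb encode proteins that pair with those of Jun, Junb and Jund to form AP-1, and ATF3 pairs with Jun proteins. EGR1 is a zinc-finger activator, IER2 a short nuclear protein, and DUSP1 a phosphatase that switches MAPKs off. In blood stem and progenitor cells these genes are known for their quick response to cytokines and to cell isolation.

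The promoters of 5 members are shown because these members cover both of the expression patterns described below. Each sequence is the 250 bases before the gene's start in the RefSeq table for GRCm38.p6, printed 5′ to 3′ on the gene's strand. The windows are chr12:85473640-85473889 for Fos (plus strand), chr17:26508473-26508722 for Dusp1 (minus), chr8:84978749-84978998 for Junb (minus), chr1:191183334-191183583 for Atf3 (minus) and chr4:95052223-95052472 for Jun (minus). Capitals mark TGACG, the core of the CREB and ATF motif, on either strand, where it reads CGTCA on the other one.
Fos: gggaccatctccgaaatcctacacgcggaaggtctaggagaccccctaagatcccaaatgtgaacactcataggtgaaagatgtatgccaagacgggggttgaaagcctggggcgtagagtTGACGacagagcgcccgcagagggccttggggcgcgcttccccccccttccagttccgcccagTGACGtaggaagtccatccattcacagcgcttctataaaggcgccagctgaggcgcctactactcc
Dusp1: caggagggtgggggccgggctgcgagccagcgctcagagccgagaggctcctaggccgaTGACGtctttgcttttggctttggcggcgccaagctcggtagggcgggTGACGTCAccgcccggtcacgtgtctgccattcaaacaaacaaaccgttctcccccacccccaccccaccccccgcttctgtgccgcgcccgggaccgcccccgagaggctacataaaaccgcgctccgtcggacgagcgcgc
Junb: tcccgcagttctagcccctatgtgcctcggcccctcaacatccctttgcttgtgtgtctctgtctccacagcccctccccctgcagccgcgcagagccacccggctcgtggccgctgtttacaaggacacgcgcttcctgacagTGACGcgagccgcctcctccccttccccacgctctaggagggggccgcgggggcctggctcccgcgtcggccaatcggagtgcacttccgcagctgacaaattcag
Atf3: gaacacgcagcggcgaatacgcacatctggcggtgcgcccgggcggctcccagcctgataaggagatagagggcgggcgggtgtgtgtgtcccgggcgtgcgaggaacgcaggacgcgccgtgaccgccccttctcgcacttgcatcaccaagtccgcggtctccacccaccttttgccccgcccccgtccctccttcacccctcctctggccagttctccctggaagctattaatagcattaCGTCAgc
Jun: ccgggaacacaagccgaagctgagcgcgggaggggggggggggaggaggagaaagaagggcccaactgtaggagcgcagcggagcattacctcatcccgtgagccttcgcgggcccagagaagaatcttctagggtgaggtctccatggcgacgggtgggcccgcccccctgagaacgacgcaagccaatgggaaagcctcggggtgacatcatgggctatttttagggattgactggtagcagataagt
Promoters of 7 members were matched, and Egr1 and Ier2 were not matched. TGACG lay on either strand in 5 of the 7, namely Fos, Fosb, Junb, Dusp1 and Atf3, and in 17.8% of all 32851 promoters of the same length. The full palindrome TGACGTCA, which holds TGACG on both strands, lay in Dusp1 alone among the 7 and in 1.55% of all. TGACTCA, the AP-1 motif, was in 0 of the 7 and in 4.46% of all. The CArG box, which SRF binds, was also in 0 of the 7, against 1.47% of all. These are matches of letters in a short window and not binding sites.

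Library totals ran from 13016038 to 37050983 counts, with a median of 28458444. The sort markers Kit, Ly6a and Cd34 were detected in every library, while Slamf1, a marker used to separate these subsets, was at 0 in 12. Most of the 8 stood apart in markers of 3 other cell types. All 11 mature neutrophil genes had a higher median in the 8 than in the 24, and their summed share was 0.00302% to 0.398% of the counts against 0.000229% to 0.00702%. The 7 erythroid genes summed to 0.00634% to 0.389% against 0.00179% to 0.0406%, and the 6 macrophage genes to 0.000594% to 0.0168% against 0% to 0.0046%. Ly6g, which defines neutrophils, was at 0 in every one of the 24 and had a median of 2.93 CPM (counts scaled to library size, here with TMM factors) in the 8. MPP4 1013/1013 2 was the lowest of the 8 in all 3 lists, at 0.00302%, 0.00634% and 0.000594%, inside the ranges of the 24. MPP2 1013/1013 2 also lay inside those ranges for the erythroid (0.0104%) and macrophage (0.00417%) lists. The ranges of the B cell list (0.0317% to 0.292% against 0.00772% to 1.73%), the T and NK cell list (0.0435% to 0.0928% against 0.00797% to 0.0853%) and the stroma and endothelium list (0.000904% to 0.00746% against 0.000522% to 0.00697%) overlapped. A higher median in the 8 was found for 6 of 7 B cell, 5 of 6 T and NK cell and 1 of 5 stroma and endothelium genes. Cd3e, which defines T cells, was at 0 in 27 libraries. The mitochondrial share had a median of 1.52% in the 8 and 0.807% in the 24. In these bulk pools, fewer cells of a type and less RNA per cell cannot be told apart.

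The 9 members took 0.531% to 1.90% of all counts in each of the 24 libraries and 0.0538% to 0.397% in the 8. Levels can be compared between genes per kilobase of the deposited transcript length. On that scale the 24 libraries had medians of 5062 CPM per kb for Fos, 2151 for Dusp1, 520 for Ier2, 458 for Junb and 185 for Jun. Egr1 followed at 158, Atf3 at 25.4, Fosb at 12.8 and Jund at 0.716. The order was the same with exon lengths from GENCODE, but those lengths gave lower levels, of 1753 CPM per kb for Fos, 1293 for Dusp1, 229 for Junb and 7.45 for Fosb, so the levels depend on the transcript model by more than 1.5 times. Jund stood lowest, and its count is uncertain. Of its 1668 exon bases, 877 (52.6%) overlap the antisense gene Gm11175, and its model in the files starts 1210 bases after the RefSeq start. The strand setting of the counting is not given in the sources used here, so reads of overlapping genes cannot be told apart. Smaller overlaps touch Jun (7.28% of exon bases, with Junos), Junb (7.52%, with Prdx2) and Dusp1 (0.332%, with Ergic1).

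**Figure D1:**
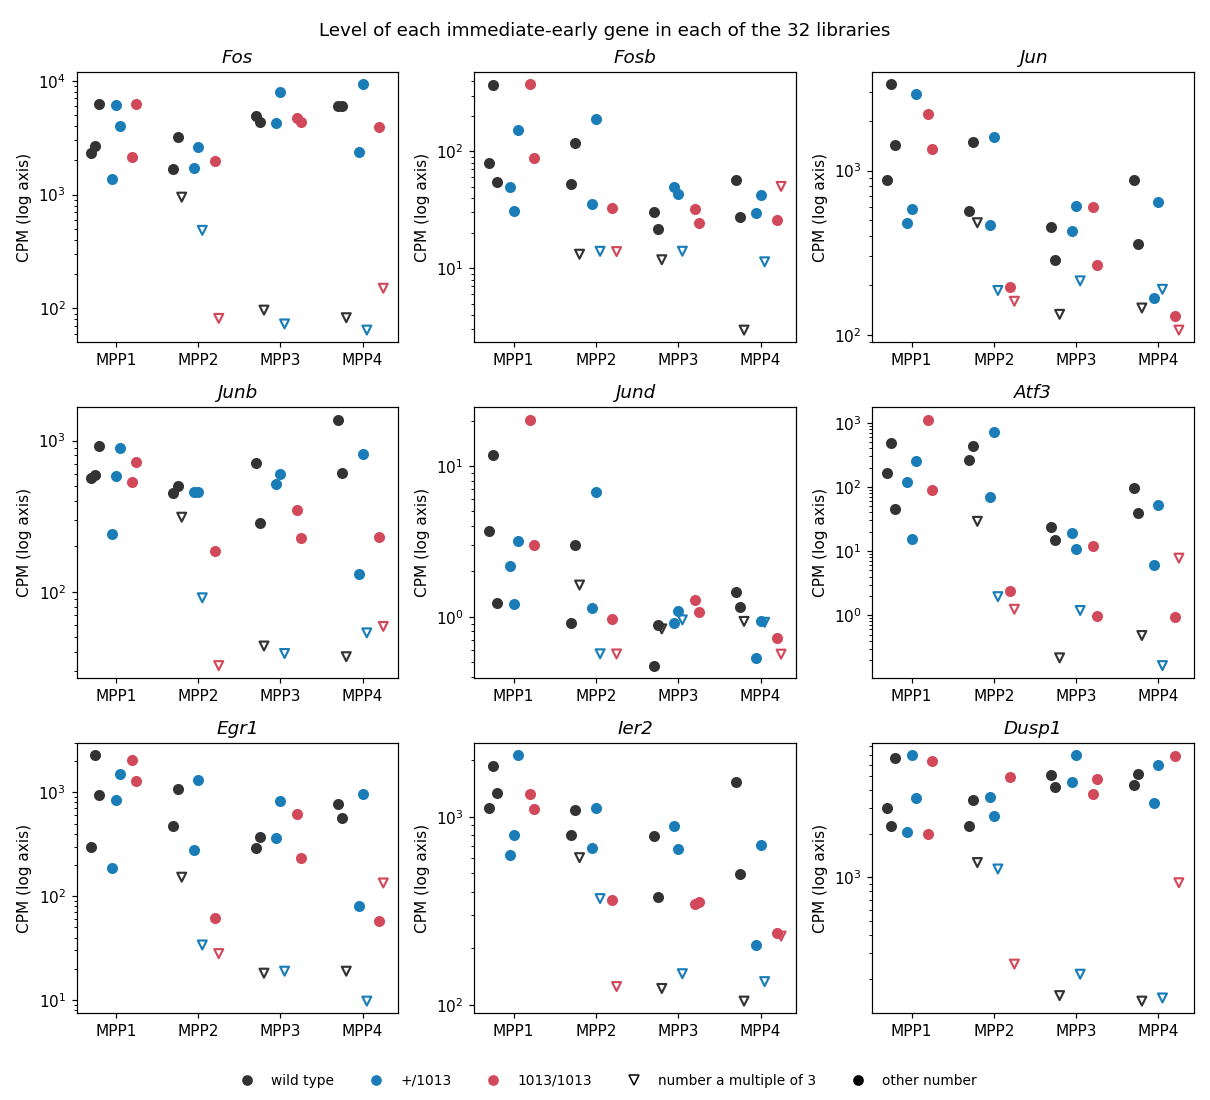
CPM of each member (log axis) in each of the 32 libraries, by subset and genotype, where 1 symbol is 1 library and open triangles are the 8 libraries numbered by a multiple of 3. Fos and Dusp1 are lower in all 8 triangles than in any filled circle, while Jund shows no such gap.

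The levels of Fos and Dusp1 separated the 8 from the 24 without overlap. The share of all genes that do so was not counted, and the division was noticed earlier partly in Fos. Fos, whose protein pairs with JUN to form AP-1, had 64.6 to 949 CPM in the 8, with a median of 89.8. In the 24 it had 1381 to 9321 CPM, with a median of 4123. The medians differed 45.9-fold. Dusp1, the feedback phosphatase, behaved alike, with 140 to 1266 CPM and a median of 234 in the 8. Its range in the 24 was 1993 to 6964 CPM around a median of 4280, 18.3-fold apart. Junb, a Jun family member that also restrains Jun, had 32.6 to 312 CPM (median 48.7) against 132 to 1376 (median 527). Only MPP2 wild type 3 of the 8 lay within the range of the 24 for Junb.

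The other members were lower in the 8 as well, but their ranges overlapped more. Egr1 had 9.76 to 152 CPM (median 23.5) in the 8 and 58.3 to 2284 (median 592) in the 24, and 6 of the 8 lay below all 24. Atf3, a stress-induced factor, had 0.164 to 29 CPM (median 1.21) against 0.943 to 1116 (median 48.4), a 40-fold gap between medians, with 3 of the 8 below all 24. Its lowest values rest on few reads, since MPP4 +/1013 3 had 5 counts and MPP3 wild type 3 had 6. Ier2 had 105 to 606 CPM (median 140) against 209 to 2123 (median 791), and Fosb 2.96 to 50.1 (median 13.5) against 21.5 to 375 (median 46.5). Jun differed least among these, with 107 to 481 CPM (median 173) against 130 to 3361 (median 591). For Jund the ranges were 0.564 to 1.62 and 0.473 to 20.3 CPM, the medians differed 1.37-fold, and 0 of the 8 lay below all 24.

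Set against the mean of the other libraries of its own group, each of the 8 was lower in Fos, Jun, Junb, Ier2 and Dusp1, in 8 of 8 groups. Fosb, Egr1 and Atf3 were lower in 7 of 8 groups and Jund in 6. The share of all genes lower in as many groups was not counted. The exception for Fosb, Egr1 and Atf3 was MPP4 1013/1013 2, numbered 48. It had 50.1, 134 and 7.75 CPM of them, against 26.1, 58.3 and 0.943 in MPP4 1013/1013 1. On the log2 scale the within-group ratio of Fos ran from -6.49 to -1.36, that of Dusp1 from -5.08 to -1.16 and that of Jund from -2.06 to 0.20. The shallowest ratios of Fos and Dusp1 were those of MPP2 wild type 3 and MPP2 +/1013 3. These 2 libraries had 949 and 485 CPM of Fos, above all others of the 8.

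**Figure D2:**
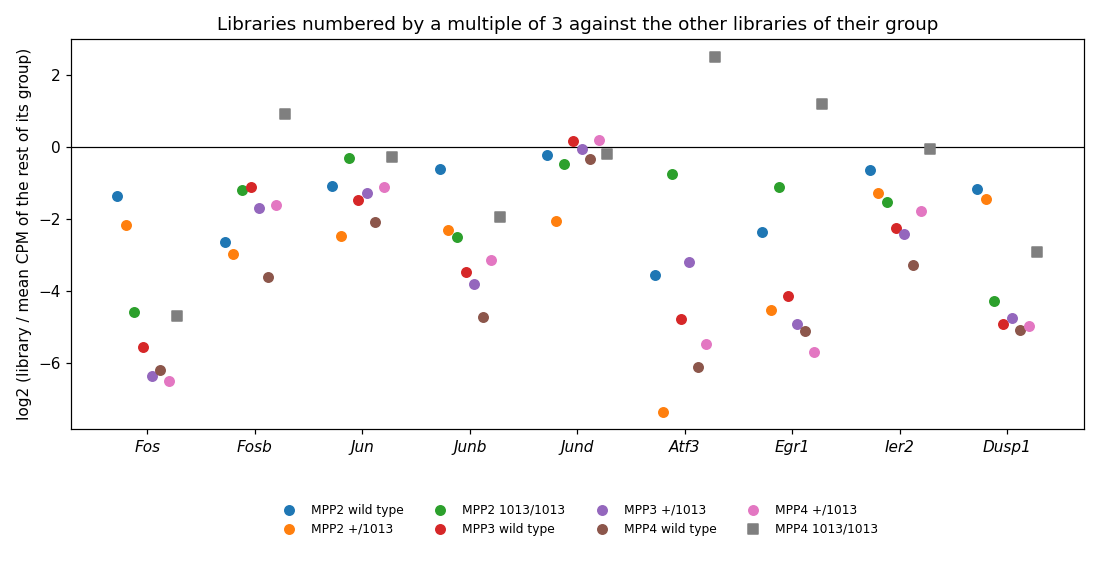
Within-group log2 ratio of each member, as the CPM of a library numbered by a multiple of 3 over the mean of the other libraries of its group, where 1 point is 1 of 8 groups. All points of Fos, Jun, Junb, Ier2 and Dusp1 lie below 0, and MPP4 1013/1013 (squares) lies above 0 for Fosb, Atf3 and Egr1.

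A term for the 8 in the fit over all genes gives the same differences within groups, with their error. This division was noticed earlier in these same libraries, partly in Fos and Egr1, so the values below describe it and do not test it. The log2 difference was -4.43 (SE 0.64) for Fos, -3.50 (SE 0.51) for Dusp1, -2.73 (SE 0.43) for Junb, -3.66 (SE 0.81) for Egr1 and -1.65 (SE 0.34) for Ier2. These 5 of the 9 were past the threshold, an adjusted p under 0.05 in edgeR's quasi-likelihood test, against 2.15% of all 18676 genes. The others had -4.50 (SE 1.21) for Atf3, -1.84 (SE 0.52) for Fosb, -1.30 (SE 0.41) for Jun and -0.39 (SE 0.50) for Jund. The median of the 9 was -2.73 and that of all genes -0.10. Each of the 8 is the last-numbered replicate of its group, so replicate number and division largely coincide. With the replicate number as a block, Fos alone was past the threshold (-5.29, SE 0.85, adjusted p = 0.0335), Dusp1 was at -4.10 (SE 0.71, adjusted p = 0.0523), Junb at -3.13 (SE 0.63, adjusted p = 0.0988), Egr1 at -3.59 (SE 0.94, adjusted p = 0.442) and Ier2 at -1.83 (SE 0.54, adjusted p = 0.507). Without MPP4 1013/1013 2, 7 members were past the threshold, Fosb and Atf3 having joined. The same holds without MPP4 1013/1013 1, since that group then has 1 library. Atf3 alone was added without MPP2 1013/1013 1 or 2, and Fosb alone without MPP1 wild type 2. Egr1 was no longer past it without any 1 of MPP2 +/1013 3, MPP3 wild type 3, MPP3 +/1013 3, MPP4 wild type 3 or MPP4 +/1013 3. The neutrophil, erythroid and macrophage shares given above moved with the same division, and their part in it was not tested. The summed share of 9 heat shock genes, which respond to protein damage, was 0.189% to 0.325% in the 8, inside the range of 0.16% to 0.918% in the 24.

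Other genes of the pathway were read against the same background of 2.15% of all genes. The division was noticed partly in Fos and Egr1, so calls of related genes also describe it and are no independent test. At an unadjusted p under 0.05 the share of all genes was 15.6%, and DESeq2 called 9.73% and limma-voom 3.62%. Of 45 further immediate-early genes, 14 were past the threshold and lower in the 8 and 0 were higher, with a list median of -1.29 on the log2 scale. Zfp36, which destabilises cytokine mRNAs, had a median of 29.9 CPM in the 8 and 717 in the 24, a log2 difference of -4.11 (SE 0.57). Klf2, a zinc-finger factor, had medians of 14.9 and 286 CPM (log2 -3.88, SE 0.59). Socs3, a feedback inhibitor of cytokine receptors, had 8.15 and 50.6 CPM (log2 -2.44, SE 0.31), and Ier3, an apoptosis regulator, 20.1 and 137 CPM (log2 -2.47, SE 0.36). Ppp1r15a, a phosphatase subunit of the stress response, was at -3.26 (SE 0.61), the orphan receptor Nr4a1 at -3.05 (SE 0.64) and the kinase Plk3 at -4.18 (SE 0.94). Ccn1, a secreted matrix protein, had 0 counts in every one of the 8 and a median of 3.19 CPM in the 24. Among 13 further AP-1 and CREB family genes, edgeR called 1, the stress factor Atf4, at median levels of 65.1 against 184 CPM (log2 -1.25, SE 0.24). DESeq2 called 4 of the 13 and limma-voom 2, and 3 had an unadjusted p under 0.05. Among 26 upstream kinases and factors, 0 were past it in edgeR, and DESeq2 and limma-voom called 0, while 4 had an unadjusted p under 0.05. The share at an unadjusted p lies near that of all genes. The 3 of lowest p were Mapk14 (log2 -0.40, SE 0.15), Mapkapk2 (0.36, SE 0.15) and Map2k2 (0.29, SE 0.13). Heat shock genes also had 0 of 9 past it by edgeR, with 5 at an unadjusted p under 0.05, 4 called by DESeq2 and 0 by limma-voom. Their lowest p was that of Dnajb1 (-0.93, SE 0.27). For these lists the call is by edgeR with Benjamini-Hochberg adjustment over all genes.

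Within the 24 libraries the members did not rise and fall as 1 set. Correlations below are over log2(CPM + 1), and their points share subsets, depth and scaling, so they are descriptions. Fos and Dusp1 went together (Pearson r = 0.794, Spearman rho = 0.781, n = 24). A second set held Jun, Egr1, Ier2, Fosb, Jund and Atf3, with r of 0.91 for Jun and Ier2, 0.896 for Jun and Egr1, 0.933 for Fosb and Jund and 0.837 for Fosb and Atf3. Between the sets r with Fos ran from -0.309 for Jund and -0.299 for Atf3 to 0.037 for Jun, 0.057 for Ier2 and 0.331 for Egr1. With Dusp1 it ran from -0.657 for Atf3 to -0.161 for Egr1. Junb lay between them, at 0.519 with Fos and 0.813 with Ier2. In the 8 libraries Fos and Atf3 had r = 0.800 and rho = 0.762 (n = 8).

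The order of libraries by Atf3 and by Fos is given for each subset, as a description without a test. In MPP1, the 3 libraries highest in Fos had 6242, 6221 and 6165 CPM of it, and 89.9, 44.8 and 15.4 CPM of Atf3, the lowest of the subset. MPP1 1013/1013 1 had 1116 CPM of Atf3 and 2153 of Fos, and MPP1 wild type 2 had 488 and 2673. The lowest in Fos, MPP1 +/1013 1 at 1381, had 119 of Atf3. The other two had 166 and 2303 (MPP1 wild type 1) and 251 and 4014 (MPP1 +/1013 3). In the 24, MPP2 and MPP4 went the other way. In MPP2 the 2 libraries highest in Fos, at 3195 and 2621 CPM, were also the highest in Atf3, at 431 and 729. In MPP4 Fos of 6049, 6043 and 9321 CPM came with Atf3 of 96.8, 39.1 and 52, and Fos of 2359 and 3918 with Atf3 of 5.97 and 0.943. MPP3 showed no clear order in the 24. Its highest Fos, 7949 CPM, came with 10.9 CPM of Atf3. Fos of 4891, 4709, 4347, 4302 and 4232 CPM came with Atf3 of 23.8, 11.8, 0.979, 14.7 and 19. Per 100 CPM of Fos, the 24 had a median of 6.73 CPM of Atf3 in MPP1 and 13.5 in MPP2. In MPP3 the median was 0.296 and in MPP4 0.558. Dusp1 stayed closer to Fos, with medians of 104, 136, 101 and 85.8 CPM in the same order.

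**Figure D3:**
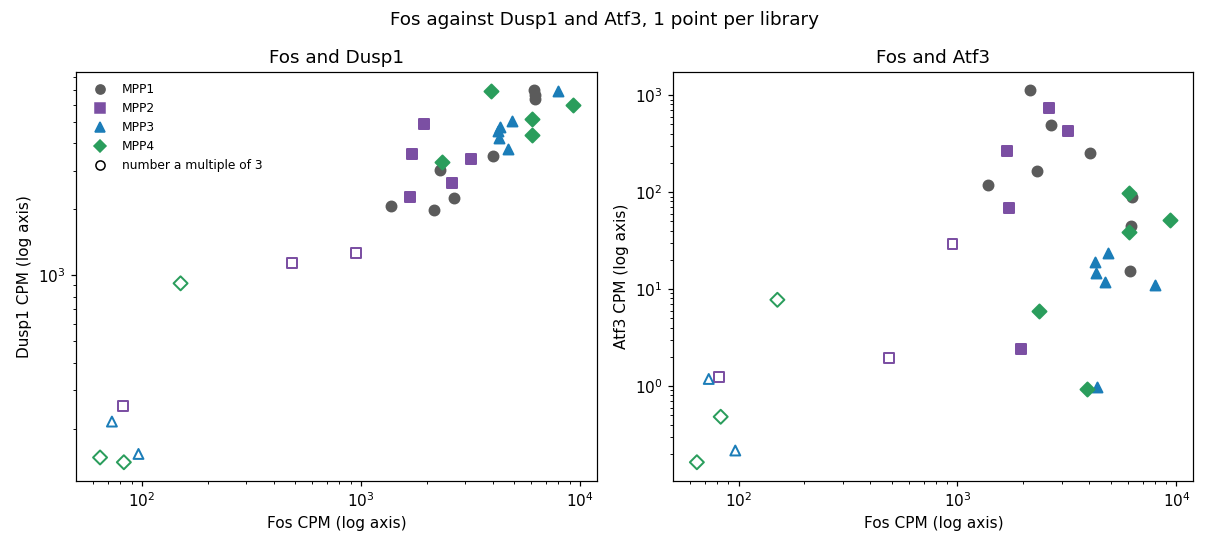
Dusp1 (left) and Atf3 (right) against Fos, in CPM on log axes, where 1 point is 1 library and open symbols are the 8 libraries numbered by a multiple of 3. Dusp1 rises with Fos over the whole range, whereas Atf3 spans 0.943 to 1116 CPM among the 24 libraries at high Fos.

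Genes were also ranked by likeness to the mean of the standardised members over the 24 libraries. Of 12803 genes with a mean of at least 1 CPM, the most alike were Klf2 (r = 0.962), Rhob (0.932), Coro1c (0.913), Tcf25 (0.909) and Ddx18 (0.907). Ppp1r15a (0.895), Ier5 (0.894), Csnk1g2 (0.892), Tnfaip3 (0.889) and Tax1bp1 (0.886) came next. Klf2, Rhob, Ppp1r15a and Ier5 belong to the further immediate-early genes. Over the 8 libraries r was 0.793 for Klf2 and 0.643 for Rhob, but -0.114 for Coro1c, -0.484 for Tcf25 and -0.3 for Ddx18. Of the members, Egr1 (0.938) and Jun (0.938) were closest to the mean, while Fos stood at 0.31 and Dusp1 at -0.111. The mean contains each member, and most members belong to the set of Jun and Egr1, so this order is partly built in.

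Jun, Fosb, Jund, Atf3 and Ier2 were lower in at least 1 other subset than in MPP1, whereas for Egr1, Junb, Fos and Dusp1 no difference passed edgeR's test over all libraries. Jun, the central AP-1 subunit, had 480 to 3361 CPM in MPP1 (median 1391), 160 to 1600 in MPP2 (median 472), 133 to 609 in MPP3 (median 357) and 107 to 876 in MPP4 (median 178). It was lower than in MPP1 by the mean over genotypes in all 3 subsets, with log2 differences of -1.77 (SE 0.51, adjusted p = 0.0399) in MPP2, -2.14 (SE 0.52, adjusted p = 0.0262) in MPP3 and -2.65 (SE 0.53, adjusted p = 0.0019) in MPP4. The ranges of MPP1 and the other subsets still overlapped. MPP1 held none of the 8, so values without them follow. Jun was then at -1.48 (SE 0.58) in MPP2, -1.92 (SE 0.52) in MPP3 and -2.37 (SE 0.62) in MPP4, and only the last was past the threshold.

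Fosb, the other Fos gene, had 30.7 to 375 CPM in MPP1 (median 83.9), 13.2 to 188 in MPP2 (median 34.1), 11.8 to 50 in MPP3 (median 27.4) and 2.96 to 56.8 in MPP4 (median 28.5). It fell by 2.37 (SE 0.65) in MPP3 and by 2.21 (SE 0.64) in MPP4 on the log2 scale, and without the 8 by 2.15 (SE 0.55, adjusted p = 0.0542) and 2.09 (SE 0.63, adjusted p = 0.0474). With 1 library left out at a time, the MPP3 call of Fosb was lost in 19 of 32 fits and its MPP4 call in 5. Jund, also of the Jun family, had 1.22 to 20.3 CPM in MPP1 (median 3.09) and 0.566 to 6.75 in MPP2 (median 1.05). It had 0.473 to 1.29 in MPP3 (median 0.932) and 0.535 to 1.45 in MPP4 (median 0.924). Its log2 difference was -2.46 (SE 0.59) in MPP3 and -2.62 (SE 0.59) in MPP4. Without the 8 it was -2.49 (SE 0.70, adjusted p = 0.0802) and -2.55 (SE 0.83, adjusted p = 0.0622), neither past the threshold. The highest values of both genes were in MPP1 1013/1013 1 and MPP1 wild type 2.

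Atf3 had the widest range of the members, with 15.4 to 1116 CPM in MPP1 (median 143), 1.24 to 729 in MPP2 (median 49.2), 0.216 to 23.8 in MPP3 (median 11.3) and 0.164 to 96.8 in MPP4 (median 6.86). In MPP3 its log2 difference was -4.79 (SE 1.32, adjusted p = 0.0477) and in MPP4 -4.06 (SE 1.27, adjusted p = 0.0336). Without the 8 both calls stood, at -4.42 (SE 0.93, adjusted p = 0.0218) and -4.41 (SE 1.18, adjusted p = 0.0278). With 1 library left out at a time, however, the MPP3 call was lost in 25 of 32 fits and the MPP4 call in 7. Ier2 had 627 to 2123 CPM in MPP1 (median 1217) and 105 to 1524 in MPP4 (median 236), and fell by 1.71 (SE 0.50, adjusted p = 0.0242) in MPP4, and by 1.4 (SE 0.40, adjusted p = 0.0357) without the 8. The median of Egr1 was 1122 CPM in MPP1, against 215, 325 and 108 CPM in MPP2, MPP3 and MPP4. Its log2 differences of -2.31 (SE 0.93), -1.81 (SE 0.91) and -2.25 (SE 0.93) did not pass, nor did they without the 8, at -1.82 (SE 0.70), -1.45 (SE 0.60) and -2.11 (SE 0.72). DESeq2 called Egr1 in MPP2 and MPP4 (adjusted p = 0.0268 and 0.0228), limma-voom in MPP4 (adjusted p = 0.0353), and edgeR in both with a replicate block (adjusted p = 0.0227 and 0.011) and in MPP4 without MPP4 +/1013 2 (log2 -3.23, adjusted p = 0.0242). Junb did not pass either, at -1.34 (SE 0.68), -0.90 (SE 0.68) and -0.98 (SE 0.68), or -0.88 (SE 0.41), -0.55 (SE 0.37) and -0.41 (SE 0.40) without the 8.

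The median of Fos over all libraries was 3343 CPM in MPP1, against 1694, 4325 and 3138 CPM in MPP2, MPP3 and MPP4. Over the 24 they were 3343, 1952, 4528 and 6043. Its log2 difference from MPP1 was -1.42 (SE 0.96) in MPP2, -0.03 (SE 0.93) in MPP3 and -0.30 (SE 0.94) in MPP4. Dusp1 was at -0.75 (SE 0.79), -0.14 (SE 0.79) and -0.27 (SE 0.79). Without the 8, Fos was at -0.85 (SE 0.43) in MPP2, 0.36 (SE 0.38) in MPP3 and 0.40 (SE 0.41) in MPP4, and Dusp1 at -0.23 (SE 0.35), 0.24 (SE 0.32) and 0.38 (SE 0.34). These 6 values lie within 2 SE of 0, which leaves room for a difference in either direction.

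In all, 1 of the 9 members was past the threshold in MPP2, against 6.73% of all genes. In MPP3 it was 4 of 9 against 3.11%, and in MPP4 5 of 9 against 14.7%, all of them lower than in MPP1. DESeq2 called 5, 5 and 6, against 16.4%, 9.92% and 24.5% of all genes. Without the 8 the counts were 0, 1 and 4, and with a term for them 0, 5 and 3. Single libraries moved these counts. The call of Jun in MPP2 was lost when any MPP1 or MPP2 library was left out other than MPP1 wild type 1, MPP1 +/1013 1, MPP1 +/1013 2, MPP2 wild type 2 and MPP2 +/1013 2. Leaving out MPP2 +/1013 2 gave 3 calls, with Fosb and Jund added. In MPP3 no member was past the threshold without MPP1 wild type 2, MPP1 1013/1013 1 or MPP3 1013/1013 2. There was 1 without MPP1 +/1013 3, MPP3 +/1013 3 or MPP3 1013/1013 1. There were 2 without MPP1 +/1013 2, MPP1 1013/1013 2, MPP3 wild type 1, 2 or 3, MPP3 +/1013 1 or 2, MPP4 wild type 2, MPP4 +/1013 1, or MPP4 1013/1013 1 or 2. In MPP4 there were 2 without MPP1 +/1013 3, MPP1 1013/1013 1, MPP4 1013/1013 1 or MPP4 1013/1013 2, and 3 without MPP1 wild type 2.

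**Figure D4:**
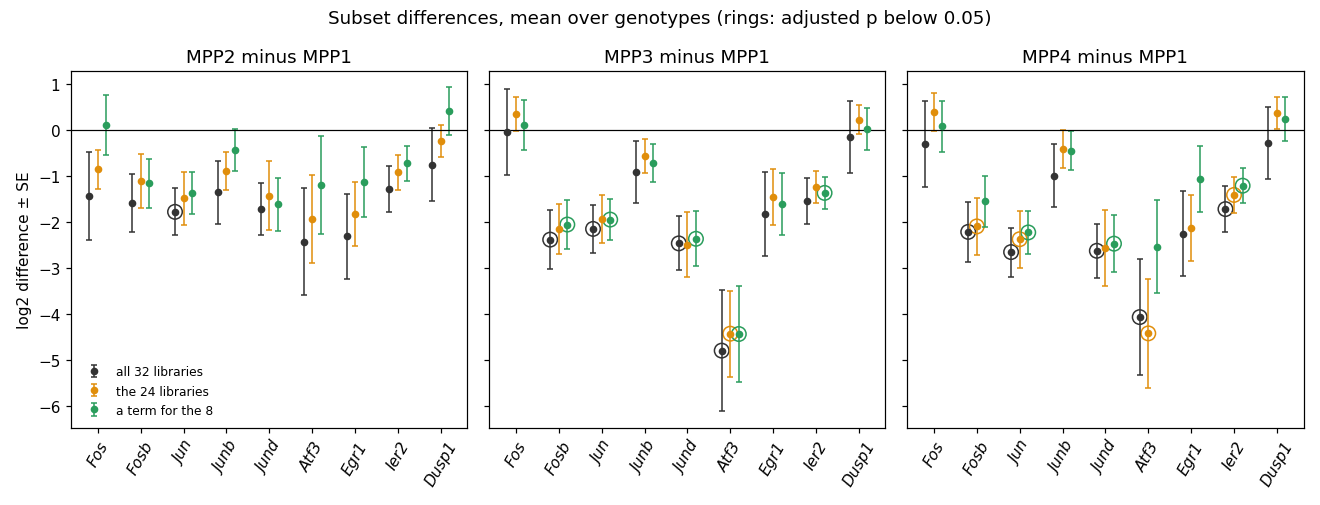
Log2 difference of each member from MPP1 (mean over genotypes) with bars of 1 SE, from all 32 libraries, from the 24 and with a term for the 8, with rings where the adjusted p is below 0.05. Fosb, Jun, Jund, Atf3, Egr1, Ier2 and Junb lie below 0 in MPP3 and MPP4 in all 3 fits. Fos and Dusp1 lie on both sides of 0 there, depending on the fit.

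The further immediate-early genes called in these subsets were all lower than in MPP1. Of the 45, 7 were lower in MPP3 and 10 in MPP4 past the threshold, 1 (the phosphatase gene Dusp5) in MPP2, and 0 were higher. All genes had 3.11%, 14.7% and 6.73% called in MPP3, MPP4 and MPP2, so the count in MPP2 is below the background and that in MPP4 not far above it. Nr4a1 was at -4.08 (SE 0.93) in MPP3 and -2.84 (SE 0.86) in MPP4 on the log2 scale, and the zinc-finger factor Klf6 at -2.29 (SE 0.58) and -2.48 (SE 0.58). Ier5 was at -1.66 (SE 0.35) and -1.30 (SE 0.35), and the survival gene Mcl1 at -1.38 (SE 0.32) and -1.28 (SE 0.32). The list median was -0.96 in MPP2, -1.33 in MPP3 and -1.11 in MPP4, and that of all genes -0.16, -0.08 and -0.15. Among the 13 AP-1 and CREB family genes 2 were higher in MPP4, Crem (2.28, SE 0.35) and Batf3 (6.33, SE 1.69), and 1 was lower, Atf4 (-1.13, SE 0.37). Batf3 had a median of 0.0496 CPM in the 24. In MPP2 1 of the 13 was lower, Jdp2 (-1.27, SE 0.33), and in MPP3 0 passed by edgeR, with 4 at an unadjusted p under 0.05 and 1 called by DESeq2 and by limma-voom. Among the upstream genes Srf, the factor that drives many immediate-early promoters, was at -0.80 (SE 0.27) in MPP4 and Hras at 0.49 (SE 0.12). In all, 1 of the 26 upstream genes was higher and 5 were lower in MPP4, 1 higher and 3 lower in MPP2, and 0 in MPP3, beside the same backgrounds. In MPP3 DESeq2 called 3 of them and limma-voom 2, and 3 had an unadjusted p under 0.05. The heat shock genes Dnajb1 (-1.59, SE 0.36), Hspa1b (-3.65, SE 0.92) and Hspb1 (-5.74, SE 1.84) were lower in MPP4, and Dnajb1 also in MPP3 (-1.56, SE 0.36). The summed heat shock share was 0.253% to 0.918% in MPP1, and 0.16% to 0.501% in MPP2, 0.222% to 0.362% in MPP3 and 0.178% to 0.337% in MPP4 over the 24 libraries. Its part in the subset differences was not tested.

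In wild type alone, with 3 libraries on each side, 0 of 27 member values were past the threshold in edgeR. At an unadjusted p under 0.05 there were 8 (5 in MPP3 and 3 in MPP4, against 8.15% and 8.75% of all genes), and DESeq2 called 3 (Fosb, Jun and Jund in MPP3, against 3.06% of all genes) and limma-voom 0. Of all genes, 0% were called in MPP2, 0.102% in MPP3 and 0.76% in MPP4. In MPP3 Jun was at -2.70 (SE 0.85), Jund at -2.93 (SE 0.95), Fosb at -2.99 (SE 1.06) and Atf3 at -4.17 (SE 1.98). In MPP4 they were at -2.04 (SE 0.83), -2.23 (SE 0.92), -2.54 (SE 1.04) and -2.36 (SE 1.82). Each of these values has the sign of the mean over genotypes, but wild type is 1 of the 3 genotypes in that mean, so this is partly built in. Wild-type MPP3 and MPP4 each hold 1 of the 8, and MPP1 holds none.

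No difference between +/1013 and wild type was detectable in the members. Fos had 82.9 to 6221 CPM in the 12 wild-type libraries (median 2934) and 64.6 to 9321 in the 12 +/1013 libraries (median 2490). Dusp1 had 140 to 6642 (median 3201) against 148 to 6964 (median 3392). The ranges overlapped almost fully, and both genotypes hold 3 of the 8. Over the 4 subsets the log2 difference from wild type was 0.03 (SE 0.75) for Fos, -0.02 (SE 0.49) for Fosb, -0.15 (SE 0.40) for Jun, -0.37 (SE 0.54) for Junb and -0.22 (SE 0.44) for Jund. It was -0.56 (SE 0.87) for Atf3, -0.02 (SE 0.70) for Egr1, -0.27 (SE 0.39) for Ier2 and 0.11 (SE 0.63) for Dusp1. By edgeR 0 of 9 were past the threshold, 0 had an unadjusted p under 0.05, and DESeq2 and limma-voom called 0. Of all genes, 0.0214% were called. Within single subsets 0 of 9 were called in each of the 4, as were 0% of all genes.

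With 2 copies of the allele, 0 of 9 members were past the threshold by edgeR in the comparison with wild type, against 0.685% of all genes. Atf3 had the widest difference of the 9, at -2.51 (SE 1.09, adjusted p = 0.245). Atf3 had 0.943 to 1116 CPM in the 8 1013/1013 libraries (median 5.08) and 0.216 to 488 in wild type (median 42). DESeq2 called Atf3, with an adjusted p of 0.0476, against 9.93% of all genes, and limma-voom called 0 of 9. Junb was at -1.14 (SE 0.62), Egr1 at -1.13 (SE 0.82), Ier2 at -0.97 (SE 0.45) and Jun at -0.93 (SE 0.46). Fos was at -0.30 (SE 0.84), Jund at -0.09 (SE 0.49), Fosb at -0.03 (SE 0.55) and Dusp1 at 0.24 (SE 0.70). Fosb was at 0.30 with a term for the 8, Jund at 0.13 with a term for the 5 late libraries (46 or higher), and Dusp1 at -0.35 with a replicate block, so these 3 have no settled direction. At an unadjusted p under 0.05 there were 2, Atf3 and Ier2, a share near the 16.4% of all genes. The median of the 9 was -0.93, and that of all genes -0.17. Against +/1013, 0 of 9 were past the threshold by edgeR, DESeq2 or limma-voom and 0 had an unadjusted p under 0.05, with 0.0428% of all genes called.

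By subset, the median log2 difference of the 9 in 1013/1013 was -1.77 in MPP2 and -1.59 in MPP4, against 0.17 in MPP1 and 0.43 in MPP3. The 8 are spread unevenly over these comparisons. In MPP2 and MPP4 they make up 1 of 2 1013/1013 libraries and 1 of 3 wild-type ones. In MPP3 they include 1 wild-type library and no 1013/1013 library, and MPP1 holds none of them. The part of this spread in the 4 medians was not tested. In MPP2, Atf3 had 2.41 and 1.24 CPM in the 2 1013/1013 libraries against 262, 431 and 29 in wild type. Jun had 196 and 160 CPM against 564, 1486 and 481. Neither gene's groups overlapped, but 1013/1013 2 and wild type 3 of MPP2 both belong to the 8. The log2 differences were -7.04 (SE 2.75, adjusted p = 0.333) and -2.24 (SE 0.97, adjusted p = 0.384), and DESeq2 called Atf3 with an adjusted p of 0.00409. In MPP4, Jun had 130 and 107 CPM against 876, 359 and 146, with a log2 difference of -1.96 (SE 0.96, adjusted p = 0.323). Junb had 230 and 59.1 CPM against 1376, 613 and 37.3 there (log2 -2.23, SE 1.31, adjusted p = 0.404). For both genes in MPP4, the last value of each genotype is from 1 of the 8. In MPP1, Atf3 had 1116 and 89.9 CPM in 1013/1013 against 166, 488 and 44.8 in wild type. Its difference was positive there, at 1.37 (SE 1.91, adjusted p = 1). In MPP3, Fos had 4709 and 4347 CPM against 4891, 4302 and 96.7, of which the last is 1 of the 8. In each of the 4 subsets 0 of 9 were called by edgeR, against 0.712% of all genes in MPP4, 0.00535% in MPP1, 0.00535% in MPP2 and 0% in MPP3. Over the 72 member values of both genotypes, 2 had an unadjusted p under 0.05 and DESeq2 called 1 (Atf3 in MPP2, where it called 5.88% of all genes).

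**Figure D5:**
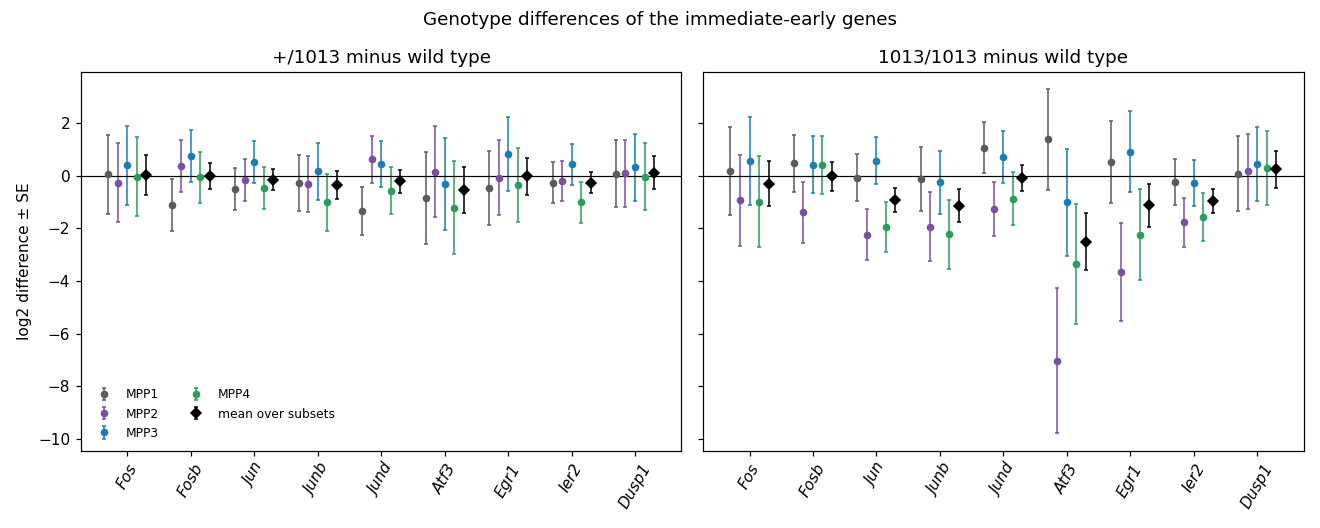
Log2 difference of each member from wild type with bars of 1 SE, for +/1013 (left) and 1013/1013 (right), in each subset (circles) and as the mean over subsets (diamonds). The means of +/1013 lie between -0.56 and 0.11, and the widest bar is that of Atf3 in 1013/1013 MPP2, at -7.04 (SE 2.75).

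Other lists of the pathway also held no edgeR call by genotype over the subsets. In both comparisons with wild type over the subsets, 0 of the 45 further immediate-early genes, 0 of 13 AP-1 and CREB family genes, 0 of 26 upstream genes and 0 of 9 heat shock genes were past the threshold by edgeR. At an unadjusted p under 0.05 there were 0, 1, 0 and 2 of them in +/1013, and 5, 6, 12 and 1 in 1013/1013, in that order, against 4% and 16.4% of all genes. DESeq2 called 1, 0, 0 and 0 in +/1013 and 2, 3, 8 and 0 in 1013/1013, against 1.03% and 9.93% of all genes, and limma-voom called 0 except for 1 upstream gene in 1013/1013. In 1013/1013 the AP-1 and CREB family list (6 of 13) and the upstream list (12 of 26) thus had larger shares at an unadjusted p under 0.05 than all genes, which was not tested. In 1013/1013 the 45 had a median of -0.47 on the log2 scale, and the lowest p was that of Klf6, at -1.42 (SE 0.51, adjusted p = 0.166). In MPP4 alone, 2 of the 26 upstream genes were past the threshold in 1013/1013, both lower, against 0.712% of all genes. There 8 of the 26 had an unadjusted p under 0.05, against 15.8% of all genes. DESeq2 called 7 and limma-voom 2, against 11.1% and 1.94% of all genes. Of the 2 1013/1013 libraries of MPP4, 1 belongs to the 8. Map2k4, which activates JNK, was at -1.90 (SE 0.36, adjusted p = 0.012), and Rps6ka5, a nuclear kinase downstream of p38 and ERK, at -5.78 (SE 1.23, adjusted p = 0.0304).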

How the data were processed

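RNA of the sorted pools was amplified with SMART-Seq v4 from 350 to 1000 pg over 12 PCR cycles and made into libraries with Nextera XT, per the labels' protocols. The submitters' processing notes name STAR, HTSeq and mm10, without versions. The values used are the raw read counts per gene deposited by the authors, not normalized. The strand setting of the counting is not given in the sources used here. The median transcript length deposited by the authors was used for levels per kilobase. The table held 30644 genes, of which 3883 had no count, and 0 summary lines; 64 other columns of per-sample values were not used. Amplified reads without molecular identifiers are not independent molecules, so depth gives counting error only.

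Genes were filtered with filterByExpr over the 12 groups (18676 kept), scaled by TMM and tested with edgeR 4.0.16 (quasi-likelihood, Benjamini-Hochberg over all genes tested, threshold 0.05) in R 4.3.3, in 1 fit with a coefficient per group. The division by library number added a term to that fit. CPM are counts over TMM-scaled library sizes. Correlations used log2(CPM + 1). Alternatives were RLE scaling, no filter, DESeq2 1.42.0, limma-voom (limma 3.58.1), a replicate block, leaving out or modelling the 8 libraries, a term for 5 libraries numbered from 46 on, and leaving out each library. Named genes of other lists were those past the threshold, at most 8 per list and comparison by absolute log2 difference, or else the 3 of lowest p, of which the text prints a selection. Members, lists and the division were chosen with earlier results of these data known.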

Additional observations from a re-analysis of the deposited data

Results flagged for a closer look

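Single libraries lay far from the others of their set, beyond Dixon's 95% critical value, in 8 cases. There were 18 sets, 9 genes among the 8 libraries numbered by a multiple of 3 and among the 8 1013/1013 libraries. Chance gives about 1 in 20 only for separate sets of values with a normal spread. These sets hold CPM pooled over subsets and share libraries, so the number of cases cannot be read against that rate. Among the 8 numbered by a multiple of 3, MPP2 wild type 3 had 481.1 CPM of Jun (the others 106.7 to 212.9), 311.6 of Junb (32.55 to 91.37), 1.621 of Jund (0.5641 to 0.9526) and 29.03 of Atf3 (0.1638 to 7.747). It had the fewest counts of all libraries, 13016038. MPP4 1013/1013 2 had 50.13 CPM of Fosb, against 2.962 to 13.99 in the others. Among 1013/1013 libraries, MPP1 1013/1013 1 had 375.3 CPM of Fosb (13.89 to 87.64), 20.29 of Jund (0.5641 to 3.005) and 1116 of Atf3 (0.9432 to 89.88).

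For Jund, 1 pair of subsets moved in opposite directions between 1013/1013 and wild type. In MPP3 the 1013/1013 libraries had 1.29 and 1.08 CPM and wild type 0.473, 0.875 and 0.829. In MPP4 they had 0.721 and 0.564 against 1.45, 1.17 and 0.93. The groups do not overlap in either subset, but these libraries had only 13 to 46 counts of Jund. By edgeR the log2 difference was 0.70 (SE 0.98, unadjusted p = 0.48) in MPP3 and -0.88 (SE 1.02, unadjusted p = 0.397) in MPP4. The difference between the subsets was not tested, and the share of all genes with such a pattern was not counted.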

How the results depend on the processing

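Of 2142 recomputed log2 differences of members, 1911 kept their direction and their side of the threshold. Another 94 changed sign, 107 lost a call and 30 gained one. The main fit gave 54 such values, of which 5 were called for the division, 1 in MPP2, 4 in MPP3 and 5 in MPP4. An uncalled value cannot lose a call, so the 107 came from these called values alone and are no share of 2142. Of 358 recomputed counts, 310 stayed within 1.5 times, 41 fell and 7 rose. The cause of these changes was not tested.

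Samples with the same replicate number mostly did not deviate together. The deviations are from means of only 2 or 3 libraries, so this check cannot exclude pairing. Over 160 pairs the correlation of deviations had a median of 0.0342 (-0.187 to 0.258), with 114 at or under 0.1. With a replicate block, 1 member was past the threshold for the division (5 without) and 5 in MPP2 (1 without). DESeq2 called 8 for the division, 1 for 1013/1013, 1 within single subsets, 5 in MPP2 and 3 in wild type. In MPP2 the count was 0 without the 8, with a term for them and with a term for the late libraries, those numbered 46 or higher. In MPP3 it was 2 without the filter, 1 without the 8 and 1 with the later term, and in MPP4 3 with a term for the 8. Leaving out 1 library each gave 4 to 7 members for the division, 0 to 3 in MPP2, 0 to 4 in MPP3 and 2 to 6 in MPP4.

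Changes of sign concerned uncalled values. For +/1013, Fos was at -0.17 with the block, -0.15 by limma-voom and -0.13 with a term for the 8. Fosb was at 0.24, 0.07 and 0.01, Dusp1 at -0.05 with the block, and Egr1 at 0.01 without the 8. For 1013/1013, Fosb was at 0.25 by limma-voom and 0.30 with the term, Jund at 0.00 without the 8 and 0.13 with the later term, and Dusp1 at -0.35 with the block. With the term for the 8, Fos was at 0.12, 0.12 and 0.09 and Dusp1 at 0.42, 0.02 and 0.25 in MPP2, MPP3 and MPP4. Without the 8, Fos was at 0.36 and 0.40 and Dusp1 at 0.24 and 0.38 in MPP3 and MPP4, and with the later term Fos was at 0.03 in MPP3. Leaving out 1 library each gave, for +/1013, -0.39 to 0.17 for Fos, -0.44 to 0.31 for Fosb, -0.48 to 0.06 for Jun, -0.65 to 0.08 for Jund, -0.76 to 0.21 for Egr1, -0.53 to 0.04 for Ier2 and -0.11 to 0.25 for Dusp1. For 1013/1013 it gave -0.37 to 0.29 for Fosb, -0.57 to 0.20 for Jund and -0.61 to 0.46 for Dusp1. It gave -0.33 to 0.29 for Fos and -0.37 to 0.22 for Dusp1 in MPP3, and -1.55 to 0.02 and -0.96 to 0.08 in MPP4.

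Over all genes, the division had 401 calls, 3 with the block, 1818 by DESeq2 and 676 by limma-voom. MPP2 had 1256, 3056, 2379 and, with the later term, 585. MPP3 had 581 by edgeR, 1852 by DESeq2 and 1562 by limma-voom, and MPP4 2747, 4570 and 4316. For +/1013 there were 4, 193 and 7. For 1013/1013 there were 128, 1854 and 353, with 1127 without the 8, 207 with a term for them and 85 with the later term. Between the mutant genotypes there were 8, 774 and 27, and 597 without the 8. MPP3 had 381 without the 8. Groups of 2 or 3 libraries limit what can be detected, and Atf3 rests on as few as 5 counts in 1 library.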
